A study of Mus musculus with 20 samples.

Results

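ESCRT-III is a family of small charged proteins that assemble into filaments on membranes and pinch off buds that face away from the cytoplasm. Its 10 mouse genes considered here are Chmp1a, Chmp1b, Chmp2a, Chmp2b, Chmp3, Chmp4b, Chmp4c, Chmp5, Chmp6 and Chmp7, and every probe set that the array annotation gives to one of these symbols alone was taken. That made 21 probe sets of 45101 on the array, of which 16 were among the 30153 tested, at least 1 for each of the 10 genes. The remaining 5, all of Chmp3, Chmp4c or Chmp5, had too dim a signal to be tested. A further 2 probe sets carry both the symbols Chmp1b and 2610002M06Rik and were not counted. The family was chosen because Chmp2b was already known from these data to be recovered with IRP2, so its ratios of IRP2 to control reaction are given as a description, with no test.

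Iron regulatory protein 2 (IRP2) binds iron-responsive elements, hairpins found in untranslated parts of mRNAs for iron uptake, storage and export, and thereby controls the translation or stability of those mRNAs. The question of the series was which mRNAs the protein holds when it is added to total RNA of a tissue. In the IRP2 reactions, 50 µg of pooled RNA was mixed with recombinant IRP2 made in E. coli with a His tag, and the RNA held by the protein was recovered with an antibody against the tag. The control reactions ran alongside with the same antibody and without IRP2. About 120 ng of recovered RNA was amplified and hybridised to an Affymetrix mouse genome array, which makes 10 groups of 2 arrays (5 tissues, IRP2 and control).

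All RNA came from C57BL6/J mice of both sexes. Duodenum, liver and spleen were pooled over 4 mice fed an iron-poor diet, with less than 10 mg of iron per kg, for 21 days from weaning. Bone marrow and brain were pooled over 6 mice that were 8 to 10 weeks of age and ate an iron-normal diet. A difference between these sets of tissues therefore cannot be told apart from one of diet or age. The sources used here do not say whether both replicates of a tissue drew on 1 pool of RNA, so errors measure only the spread between these arrays, which may be technical.

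ESCRT complexes act in a chain. ESCRT-0, ESCRT-I and ESCRT-II gather ubiquitinated cargo on endosomes, and ESCRT-III then constricts the neck of the bud. Chmp6 links ESCRT-II to the growing filament, the Chmp4 proteins form most of it, and Chmp3 and the Chmp2 proteins cap it and recruit the ATPase Vps4, which takes it apart. Chmp1 proteins act late with Ist1, Chmp5 binds the Vps4 cofactor Vta1, and Chmp7 starts ESCRT-III assembly at the nuclear envelope. The same machinery closes the cell bridge at the end of division and releases enveloped viruses. In humans, CHMP2B is mutated in a form of frontotemporal dementia.

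The arrays matched their tissue labels with exceptions that touch these genes. The control array of bone marrow replicate 1 stood apart: its mean Spearman correlation with the spleen arrays was 0.908, while the other 3 arrays of that tissue had 0.824 to 0.825. Myeloid markers were high on it all the same, with a mean log2 level of 11.96, and on control bone marrow replicate 2 it was 10.45. Across all tested probe sets, the ratios of the bone marrow pairs correlated at 0.0178, against 0.187 to 0.364 in the other tissues. Markers of the labelled tissue were highest there for 6 of 6 measured genes of duodenum and of bone marrow, for 5 of 5 of liver and of brain, and for 4 of 5 of spleen. The array medians also lay in separate ranges, the lower with 9 arrays from 5.39 upward and the higher with 11 from 5.55 to 5.71. Both reactions of spleen, of bone marrow replicate 2 and of brain replicate 2 lay in the lower range. The cut split bone marrow pair 1, with its IRP2 array at 5.55 and its control array at 5.47. The other arrays of the higher range were at 5.65 or above, so that IRP2 array lay nearer to the lower range. Levels are compared between tissues only with these medians in view. Markers of other organs were seen in spleen: liver markers averaged 7.86 on the IRP2 array and 7.73 on the control array of replicate 2, and 4.86 and 4.97 on those of replicate 1. Pancreas acinar markers averaged 8.62 and 9.10 on the IRP2 arrays of spleen, against 8.67 and 9.16 on the controls.

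IRP2 recognises an apical loop spelled CAGUG in its canonical targets, written CAGTG in DNA. RefSeq promoter tables (GRCm38.p6) held 7 windows for 6 of the 10 genes (Chmp1a, Chmp2a, Chmp2b, Chmp3, Chmp4b and Chmp5), each with 250 bases before the transcript start and the first 50 transcribed bases. These 30-base stretches around the only gene-strand matches to CAGTG in those windows are shown, with the match in capitals, because they are the one piece of member sequence at hand that can be set beside the IRP2 ratios.
Chmp2b: gcttcagaggcgCAGTGcgcaggcgtgctc
Chmp5: ctggttttcctcCAGTGtttgggtttcctc
The Chmp2b stretch is chr16:65562763-65562792 on the minus strand, and its match ends 14 bases before the annotated start, outside the transcript. The Chmp5 stretch is chr4:40948565-40948594 on the plus strand, and its match begins at base 25 of the transcript, so the gene whose first 50 bases hold the letters is Chmp5 and not Chmp2b. On both strands together, 55.9% of all 32851 windows hold CAGTG, 34.7% hold it on the gene strand and 7.20% hold it in the transcribed part. The windows of Tfrc, whose mRNA carries known elements in its 3' untranslated region, have none in their transcribed part either, nor elsewhere on the gene strand. Those of the iron genes Fth1 (ferritin) and Alas2 (heme synthesis) were searched too and likewise have none on the gene strand. The lack of a match in the transcribed part therefore does not set Chmp2b apart from these iron genes. A canonical element also needs a paired stem with an unpaired C 5' of the loop, and the base 6 before the match is G in the Chmp2b stretch and T in the Chmp5 stretch. The windows do not cover untranslated regions beyond these bases, so no match says only that these letters are not in them.

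Chmp2b lies on chromosome 16 at 65539128 to 65562762 (GRCm38.p6) and has 2 probe sets, 1428253_at and 1428252_at. More Chmp2b RNA was recovered with IRP2 than without it in duodenum, liver, spleen and brain on both probe sets, and bone marrow was the tissue where the reactions overlapped. Averaged over 10 pairs of reactions, the log2 ratio of IRP2 to control was 1.18 ± 0.48 on 1428253_at (SD over 10 pairs), a fold of 2.27. On 1428252_at it was 0.90 ± 0.51, a fold of 1.86. Tfrc, the transferrin receptor mRNA that IRP2 is known to bind, ranked 1st of 30153 at 3.30 ± 0.71 on the highest of its 3 tested probe sets. Its others had 2.31 and 1.90 and ranked 5th and 8th, and the Chmp2b probe sets ranked 35th and 61st.

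In duodenum the log2 levels of 1428253_at were 10.94 and 11.23 with IRP2, against 9.30 and 9.53 in the control reactions. In liver they were 9.47 and 9.54 with IRP2, against 8.21 and 8.33 in the controls. Spleen gave 9.01 and 8.53 with IRP2, against 7.41 and 7.32 in the controls. The IRP2 arrays thus lay above both controls in each of these tissues with a gap of more than 1 log2 unit. Brain gave 9.18 and 8.32 with IRP2, against 7.97 and 7.16 in the controls, so replicate 2 was lower than replicate 1 in both reactions. Bone marrow was the dimmest tissue, with 6.93 and 6.52 for IRP2, against 6.85 and 5.77 for the controls. There the IRP2 arrays fell on either side of the higher control.

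The second probe set showed the same order of reactions on its own scale. For 1428252_at the duodenum levels were 11.12 and 11.48 with IRP2, against 9.76 and 10.30 in the controls. Liver had 9.88 and 9.84 with IRP2, against 8.91 and 9.09 in the controls. Both tissues showed no overlap, as in the first probe set. In spleen the levels were 10.64 and 10.28 with IRP2, against 9.22 and 9.20 in the controls. Brain arrays gave 10.44 and 10.21 with IRP2, against 9.36 and 9.30 in the controls. In bone marrow it had 7.63 and 7.20 with IRP2, against 8.01 and 6.58 in the controls, so both IRP2 arrays lay between the control arrays. Both IRP2 arrays exceeded both controls in all 4 other tissues for 0.584% of tested probe sets. The share in single tissues was 4.21% in brain, 14.4% in duodenum, 14.5% in bone marrow, 13.9% in liver and 15.6% in spleen.

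**Figure D1:**
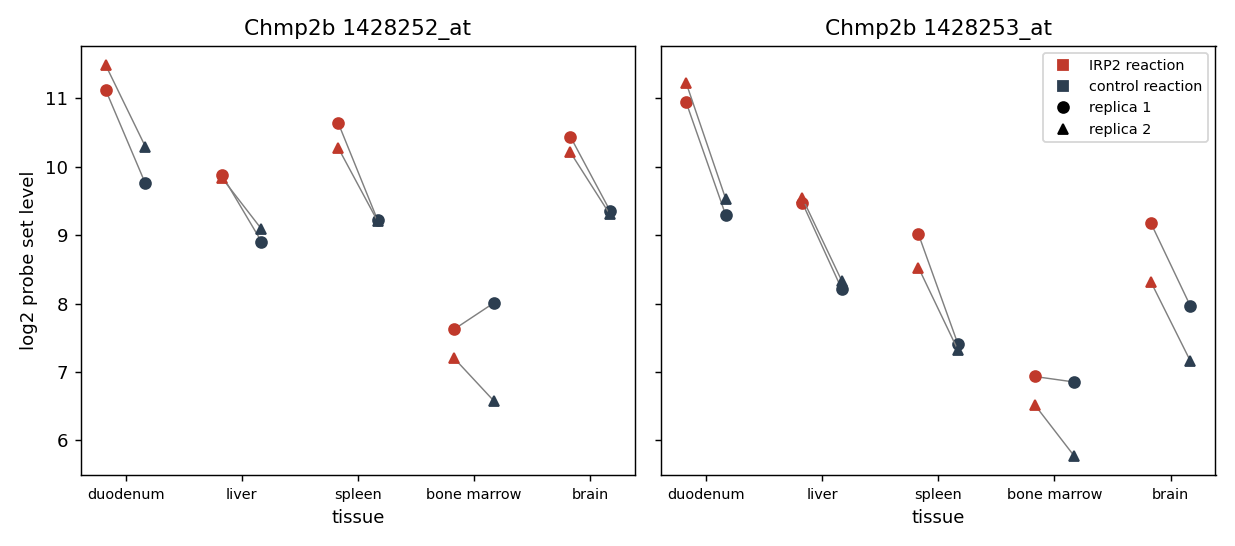
Log2 level of the Chmp2b probe sets on every array, by tissue, with IRP2 reactions to the left of their control reactions. The IRP2 points lie above both control points in duodenum, liver, spleen and brain, and overlap them in bone marrow.

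By tissue, the mean ratio of 1428253_at was 1.67 ± 0.03 in duodenum (SD over 2 pairs, as in the values that follow), which is a 3.18-fold difference. It was 1.41 ± 0.28 in spleen, 1.24 ± 0.04 in liver and 1.19 ± 0.04 in brain. The ranges of the pair ratios in spleen and liver overlapped, and those in liver and brain met at 1.21, while duodenum lay above spleen, 1.65 and 1.69 against 1.61 and 1.21. Bone marrow came last at 0.42 ± 0.47, from pair ratios of 0.08 and 0.75. For 1428252_at the means were 1.27 ± 0.12 in duodenum, 1.25 ± 0.25 in spleen, 0.99 ± 0.12 in brain, 0.86 ± 0.16 in liver and 0.12 ± 0.71 in bone marrow. Duodenum and spleen overlapped on that probe set, brain and liver did too, and bone marrow had the only ratio below 0 of any Chmp2b pair, -0.38 in pair 1.

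Without bone marrow the mean ratio over 8 pairs was 1.37 ± 0.23 on 1428253_at, ranging from 1.16 to 1.69. On 1428252_at it was 1.09 ± 0.23, ranging from 0.75 to 1.42. The spread over pairs was thus less than that over all 10 pairs on both probe sets. The bone marrow ratio rests on single control arrays: without control replicate 1 it was 0.96 on 1428253_at, and without control replicate 2 it was -0.13.

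The other 9 genes of the family lay close to 0. Over 14 tested probe sets their mean log2 ratios ran from -0.18 for Chmp1a to 0.13 for Chmp4c, with a median of -0.07, against a median of -0.02 over all tested probe sets. No tested paralog probe set kept its IRP2 arrays clear above the controls in more than 1 tissue. The share of all tested probe sets that did so was not computed, so no contrast with the background is drawn from it. In the other direction, Chmp7 on 1430936_at had both IRP2 arrays below both controls in duodenum, liver and spleen. The share of all tested probe sets with that order was not computed either. That probe set reached the array median on 8 of 20 arrays. The other Chmp7 probe set, 1451300_a_at, did not show it, with mean ratios of 0.14 in duodenum, 0.03 in liver and 0.07 in spleen. The lowest single-tissue mean of any Chmp2b probe set outside bone marrow was 0.86, in liver, and the highest single-tissue mean of any tested paralog was 0.50, for Chmp3 in duodenum.

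**Figure D2:**
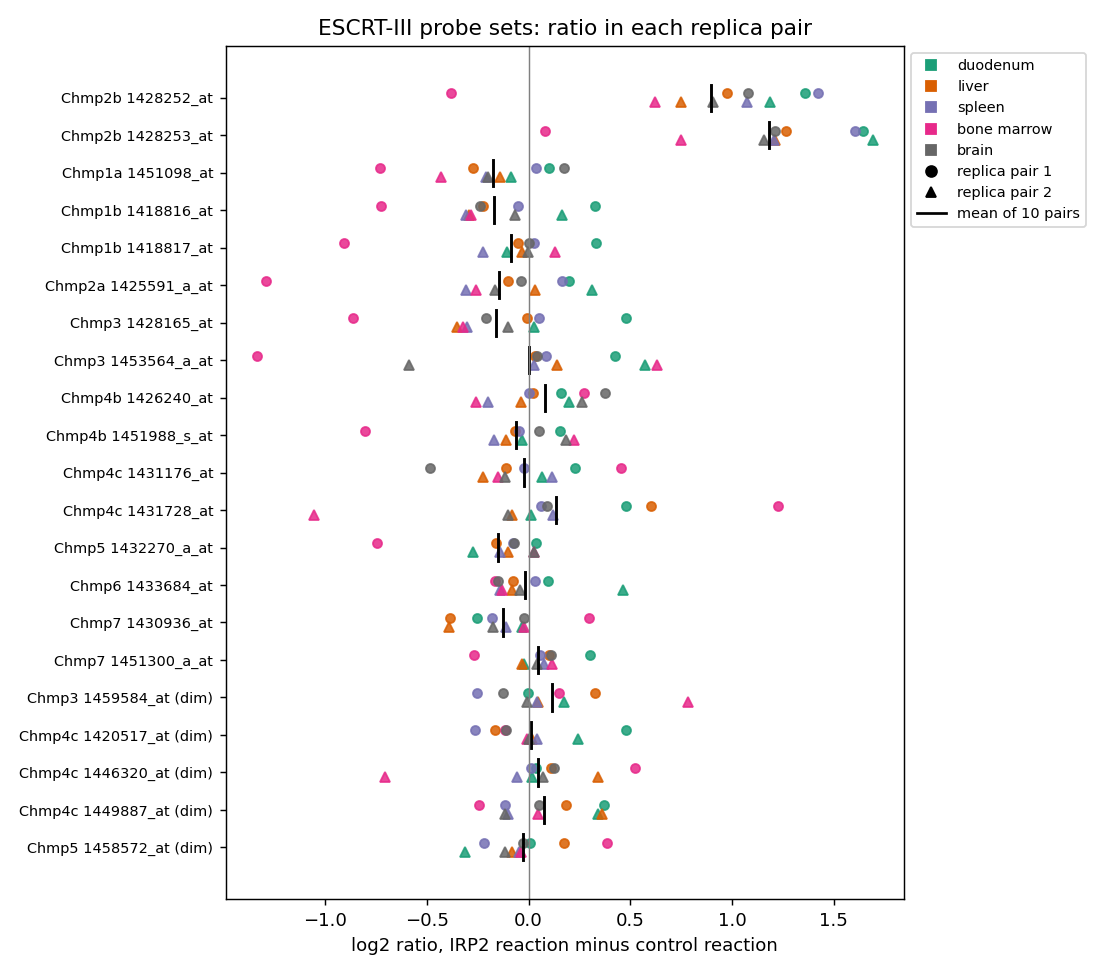
Log2 ratio of IRP2 to control reaction in each of the 10 pairs for the 21 probe sets of the 10 genes, with Chmp2b above its paralogs. The 5 that were not tested are marked as dim. The Chmp2b points lie between 0.75 and 1.69 outside bone marrow, and paralog means lie between -0.18 and 0.13.

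Chmp2a is the closest paralog of Chmp2b by name and role, since both end the filament and bind Vps4. Its probe set 1425591_a_at had a mean ratio of -0.15 ± 0.45 (SD over 10 pairs). In liver its log2 levels were 7.96 and 8.18 with IRP2, against 8.06 and 8.15 in the controls. In spleen they were 8.11 and 7.92 with IRP2, against 7.95 and 8.23 in the controls. Brain had 7.64 and 7.63 with IRP2, against 7.68 and 7.79 in the controls. The reactions thus overlapped in liver and spleen, and in brain both IRP2 arrays were slightly lower than the controls. Duodenum gave 8.52 and 9.16 with IRP2, against 8.32 and 8.84 in the controls, which overlap. The bone marrow arrays had 6.36 and 6.68 with IRP2, against 7.65 and 6.94 in the controls, so there both IRP2 arrays were the lower ones.

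Chmp3, the other subunit that joins the capping end, had mean ratios of -0.16 ± 0.35 on 1428165_at and 0.00 ± 0.58 on 1453564_a_at. On the second, duodenum stood out with 6.65 and 7.08 with IRP2, against 6.23 and 6.51 in the controls, a mean ratio of 0.50. The brain arrays of that probe set went the other way in replicate 2, with a pair ratio of -0.59. The dim probe set of Chmp3, 1459584_at, had a mean ratio of 0.11, and its control level lay below the 10th percentile of tested probe sets in every tissue.

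Chmp4b, the most used filament subunit, had mean ratios of 0.08 ± 0.21 on 1426240_at and -0.06 ± 0.29 on 1451988_s_at, whose suffix marks probes that can match transcripts of more than 1 gene. Its highest tissue mean was 0.32 in brain on 1426240_at, with levels of 10.40 and 9.67 with IRP2, against 10.02 and 9.40 in the controls. Those groups overlap, because the replicates differ more than the reactions. Chmp4c, a filament subunit that in human cells also delays abscission, had -0.02 ± 0.26 on 1431176_at and 0.13 ± 0.58 on 1431728_at. The wide spread on 1431728_at came from bone marrow, where its pair ratios were 1.22 and -1.05. Its 3 dim probe sets had mean ratios of 0.01, 0.05 and 0.08. Those with 0.01 and 0.08, 1420517_at and 1449887_at, had control levels below the 10th percentile of tested probe sets in every tissue.

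Chmp6, which starts the filament from ESCRT-II, had a mean ratio of -0.02 ± 0.19, and its highest pair ratio was 0.46 in duodenum. Chmp7 had -0.13 ± 0.20 on 1430936_at and 0.05 ± 0.14 on 1451300_a_at. Chmp5 had -0.15 ± 0.23 on 1432270_a_at, with 3 of 10 pairs above 0. Its dim probe set 1458572_at had -0.03, and its control level also lay below the 10th percentile of tested probe sets in all 5 tissues. Chmp1a, which acts late in disassembly, had -0.18 ± 0.27, and Chmp1b had -0.17 ± 0.29 on 1418816_at and -0.08 ± 0.32 on 1418817_at.

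By tissue, the paralog medians lay on either side of 0, and their replicate pairs did not always give like values. In duodenum 12 of 14 probe sets had a mean ratio above 0, with a median of 0.16, against a median of 0.04 over all tested probe sets. That rests on pair 1, whose paralog median was 0.21, while pair 2 had 0.02 and was not above the 0.04 of all tested probe sets. In spleen 4 of 14 were above 0 with a median of -0.09, from 0.03 in pair 1 and -0.16 in pair 2. In liver 3 of 14 were above 0 with a median of -0.08, and in brain 3 of 14 with a median of -0.06. The all-probe medians were -0.02 in spleen, -0.04 in liver and -0.02 in brain. Bone marrow had a paralog median of -0.32, against -0.04 over all tested probe sets, and 4 of 14 were above 0. These differences between tissues were not tested. In bone marrow pair 1, which holds the control array that stands apart, the paralog median was -0.73, against -0.14 in pair 2, and the ratios of all tested probe sets had an SD of 0.568, against 0.214 to 0.312 in the other pairs. The part of that array in these ratios was not tested.

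Set against the paralog median of the same pair, Chmp2b was higher in all 10 pairs on both probe sets. The gap averaged 1.28 ± 0.27 on 1428253_at (SD over 10 pairs) and ran from 0.81 to 1.67. On 1428252_at it averaged 1.00 ± 0.29 and ran from 0.34 to 1.39. The lowest gaps were those of bone marrow, 0.81 and 0.89 on 1428253_at and 0.34 and 0.76 on 1428252_at. Chmp2b also exceeded every single paralog probe set in 9 of 10 pairs on 1428253_at and in 8 of 10 on 1428252_at. The exceptions were bone marrow pairs, where Chmp4c reached 1.22 in pair 1 and Chmp3 reached 0.63 in pair 2.

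**Figure D3:**
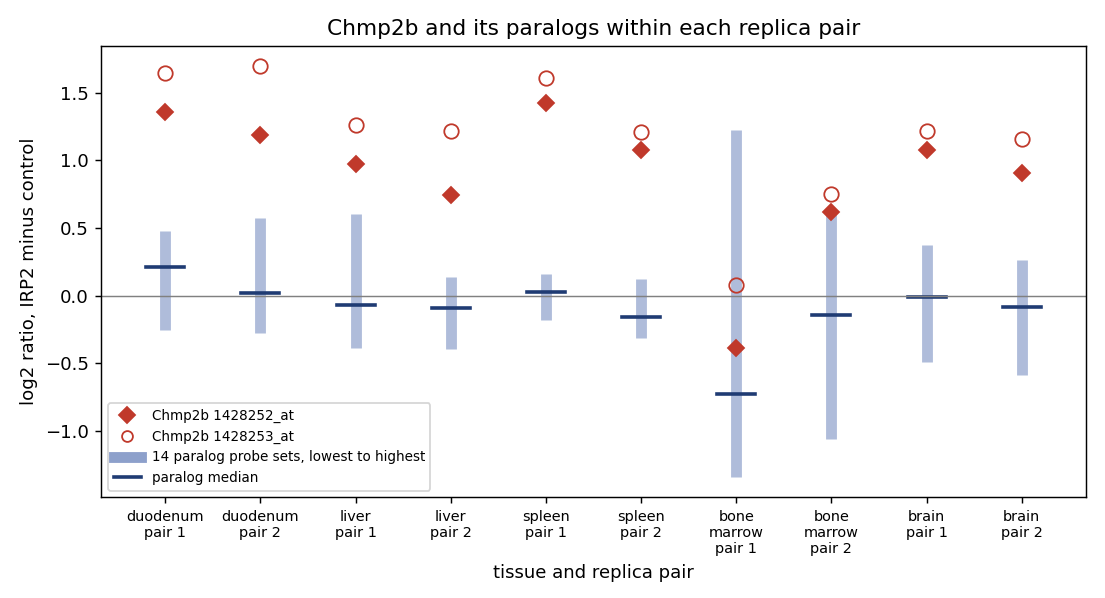
Log2 ratio of IRP2 to control reaction in each of the 10 pairs for both Chmp2b probe sets (red symbols) and for the 14 tested paralog probe sets (bar from lowest to highest, line at the median). The red symbols lie above the paralog median in all 10 pairs and nearest to it in bone marrow.

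The 5 probe sets of other genes nearest to 1428253_at were taken by the root mean square difference of the 10 pair ratios, among 25131 tested probe sets with 1 gene symbol. Pdcl3, a phosducin-like chaperone of actin and tubulin folding, was nearest at 0.174 log2 units, with a mean ratio of 1.14. Gstt3, a glutathione transferase, followed at 0.277 with a mean ratio of 1.07. Rapgef2, an exchange factor for Rap GTPases, was at 0.306 with a mean ratio of 1.14. The order continued with Taf10, a subunit of the transcription factor TFIID, at 0.314 with a mean ratio of 1.39, although its other tested probe set had 0.24. Hmces, which shields abasic sites in single-stranded DNA, was at 0.336 with a mean ratio of 1.37. The other Chmp2b probe set lay at 0.317, farther than Pdcl3, Gstt3, Rapgef2 and Taf10. The median over all candidates was 1.30, which mostly reflects the size of the Chmp2b ratios, since most tested probe sets had ratios near 0. It is therefore no measure of a shared pattern.

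The rest of the ESCRT pathway was covered by 32 genes in 6 sets, all of them with a tested probe set, 59 in all. On the mean over tissues, 0 of 59 probe sets rose and 0 fell in limma's fit, where 0.365% of all tested probe sets were called higher and 0.00663% lower. At an unadjusted p under 0.05, 1 was higher and 1 lower, where 1.93% of all tested probe sets were higher and 0.939% lower. The fit with replicate blocks had 3 above and 2 below at that p, again with 0 called, where the shares over all were 6.16% and 5.57%. Taking the brightest probe set of each gene, the median ratio was -0.05, against -0.02 over all tested probe sets, and 9 of 32 genes lay above 0. Stam, an ESCRT-0 subunit, was the lowest at -0.31 ± 0.45 (SD over 10 pairs), with a bone marrow mean of -1.02. Vps37c of ESCRT-I was the highest at 0.15 ± 0.27, which is below the lowest Chmp2b mean of 0.90.

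By set, the 3 ESCRT-0 genes had a median ratio of -0.10, from Stam to Stam2 at 0.01, and the 9 ESCRT-I genes -0.04, with Tsg101, its ubiquitin-binding subunit, at -0.20. The 3 ESCRT-II genes, which hand over to Chmp6, had a median of -0.03, from -0.12 for Vps25 to -0.02 for Vps36. The 8 genes that bind or take apart ESCRT-III had -0.06, from -0.23 for Mitd1 to 0.04 for the microtubule-severing ATPase Spast. The 6 bridging factors had -0.09, from Cep55 at -0.13 to Zfyve19 at 0.11. The 3 deubiquitinases had -0.12, from Stambp at -0.15 to Usp8 at 0.14. No set held a called gene on the mean over tissues or in any single tissue in limma's fit without the block, where 0.0730% of all tested probe sets were called in duodenum, 0.0630% in spleen, 0.0630% in brain, 0.0332% in liver and 0.00995% in bone marrow. At an unadjusted p under 0.05, bone marrow had 2 higher and 5 lower partner probe sets, where 1.73% of all tested probe sets were higher and 4.77% lower. Liver had 1 higher at that p, where 239 of all 30153 tested probe sets were higher. Brain had 1 lower, where 47 of all 30153 were lower. With the replicate block, the brightest probe set of Stam2 was higher at 0.77 and that of Stam lower at -1.02 in bone marrow, the tissue of the control array that stands apart, where 0.726% of all probe sets were called. Other probe sets of both genes disagreed there: the 3 other tested ones of Stam2 had -0.17, -0.03 and -0.24, and those of Stam had -0.22 and 0.20.

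**Figure D4:**
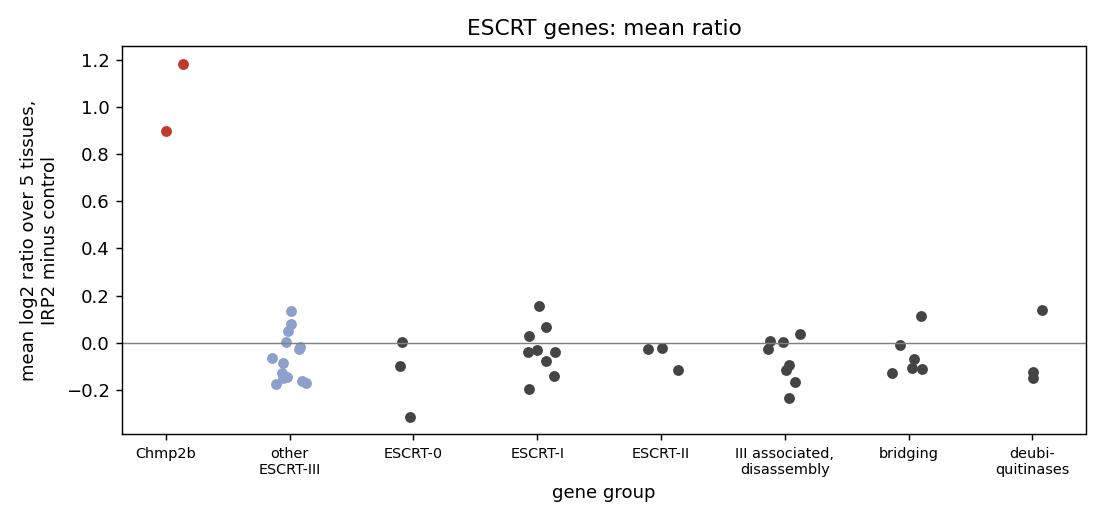
Mean log2 ratio of IRP2 to control reaction over 10 pairs for Chmp2b, its paralogs and the 32 ESCRT partner genes, grouped by complex. Chmp2b stands at 0.90 or above, and the partner genes, each by its brightest tested probe set, lie between -0.31 and 0.15.

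The control reactions give the level of each mRNA without IRP2, as carried through the reaction and its amplification and not as in the starting RNA. Tissue differences in these levels were not used to choose the genes, and they were tested in 3 comparisons with limma on the 10 control arrays. In whole tissue, fewer cells of a type and less RNA per cell cannot be told apart. Chmp2b was brightest in duodenum on both probe sets, at 9.41 ± 0.17 on 1428253_at and 10.03 ± 0.38 on 1428252_at (SD, n = 2). Bone marrow was dimmest, at 6.31 ± 0.76 and 7.29 ± 1.01. In between, 1428253_at had liver at 8.27 ± 0.09, brain at 7.56 ± 0.57 and spleen at 7.36 ± 0.06, where brain and spleen overlap. On 1428252_at the order was brain 9.33 ± 0.04, spleen 9.21 ± 0.01 and liver 9.00 ± 0.13, with no overlap between the arrays of neighbouring tissues. The probe sets therefore disagree on whether liver lies above brain and spleen.

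Chmp4c was far brighter in duodenum than in liver on 1 of its tested probe sets. On 1431176_at its control levels were 9.06 and 9.60 in duodenum, against 5.87 and 6.05 in liver. Brain averaged 4.73 ± 0.86, spleen 4.29 ± 0.18 and bone marrow 4.25 ± 0.08. These last means lie below the 10th percentile of tested probe sets on the control arrays, 4.86 in brain, 4.55 in spleen and 4.64 in bone marrow, so differences from them have no reliable size. The tissue means of Chmp2b spanned 3.10 on 1428253_at and 2.73 on 1428252_at, against a median span of 1.55 over all tested probe sets. For Chmp4c, duodenum minus liver was 3.37 ± 0.37 (SE; limma's adjusted p = 6.64e-05). The other tested Chmp4c probe set, 1431728_at, did not show it, with 6.38 and 6.81 in duodenum, against 6.40 and 6.70 in liver (difference 0.04, adjusted p = 0.998).

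In duodenum minus liver, 3 of 16 member probe sets rose and 0 fell, where 7.65% of all tested probe sets were higher and 7.20% lower (unadjusted p under 0.05: 8 members higher and 0 lower, against 12.2% and 11.0% of all). The other 2 were Chmp1b on 1418816_at, at 1.48 ± 0.30 (adjusted p = 0.00515), and Chmp6, at 1.13 ± 0.24 (adjusted p = 0.00662). Chmp1b had 9.74 and 10.22 in duodenum, against 8.30 and 8.71 in liver, and its other probe set was not called (0.89, adjusted p = 0.165). Chmp6 had 8.18 and 8.35 in duodenum, against 7.13 and 7.13 in liver. The calls of Chmp1b and Chmp6 did not hold without single control arrays of duodenum or liver. With 1 control array left out at a time, the difference ran from 1.24 to 1.72 for Chmp1b on 1418816_at and from 1.05 to 1.22 for Chmp6. Leaving out a bone marrow or brain control also changed the number of member calls, and the shares over all tested probe sets in those fits are not given here. The Chmp2b differences were 1.14 ± 0.37 on 1428253_at (adjusted p = 0.064) and 1.03 ± 0.40 on 1428252_at (adjusted p = 0.132). The median of the 16 was 0.71, against 0.01 over all tested probe sets. Pancreas markers moved with this comparison: Cela1, Cpa1, Ctrb1 and Cel, the 4 of 6 that were measured, averaged 11.51 and 11.75 on the duodenum control arrays, against 6.75 and 6.72 in liver. Their part in the member differences was not tested.

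In spleen minus bone marrow, 8 of 16 rose and 0 fell, where 22.0% of all tested probe sets were higher and 5.32% lower (unadjusted p under 0.05: 11 members higher and 0 lower, against 30.2% and 11.5% of all). Chmp2b rose by 1.92 ± 0.40 on 1428252_at (limma's adjusted p = 0.00744), with 9.22 and 9.20 in spleen, against 8.01 and 6.58 in bone marrow. On 1428253_at the difference was 1.05 ± 0.37 (adjusted p = 0.0555). Chmp1a rose by 1.28 (adjusted p = 0.00697), with 8.63 and 8.59 in spleen, against 7.59 and 7.07 in bone marrow. The others were both probe sets of Chmp4b at 1.02 and 1.55, Chmp5 at 1.47, Chmp1b on 1418817_at at 1.41, Chmp6 at 0.91 and Chmp7 on 1451300_a_at at 0.79. The other probe sets of these genes did not pass: Chmp1b on 1418816_at was at 0.56 (limma's adjusted p = 0.175), and Chmp7 on 1430936_at had the opposite sign, -0.29 (adjusted p = 0.353). The Chmp7 call on 1451300_a_at was lost with the replicate block (adjusted p = 0.0554) or without any 1 of the duodenum, liver or spleen controls or control bone marrow replicate 2. The calls depend on scaling and on single arrays, and the shares over all tested probe sets without single arrays are not given here. The 5 measured B and T cell markers averaged 9.65 and 9.80 on the spleen control arrays, against 7.26 and 6.88 on those of bone marrow, and pancreas acinar markers 8.67 and 9.16, against 6.05 and 6.23. Liver markers averaged 4.97 and 7.73 on the spleen controls, against 4.99 and 5.28 on those of bone marrow. The part of these markers in the differences was not tested. After quantile normalization over the control arrays, where the share of higher calls among all probe sets was 56.3% and not 80.6% and the median of all differences was -0.07 and not 0.15, Chmp1a and 1428252_at were the 2 that passed. Without either spleen control 0 passed, without control bone marrow replicate 2 there were 3, and without control bone marrow replicate 1 there were 12 higher and 1 lower, the lower one being Chmp4c on 1431728_at.

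In brain minus the mean of the other 4 tissues, 2 of 16 were called higher and 3 lower, where 21.0% of all tested probe sets were higher and 20.4% lower, so the members' count is not above the background. Chmp7 on 1451300_a_at rose by 0.94 ± 0.21 (limma's adjusted p = 0.0036), with 8.60 and 9.05 in brain, against 7.13 to 8.32 on the other control arrays. Its other probe set, 1430936_at, had -0.29 (adjusted p = 0.227). Chmp4b on 1451988_s_at rose by 0.76 (adjusted p = 0.0467), a call lost with the replicate block (adjusted p = 0.061) and without any 1 of the duodenum, liver, spleen or brain controls. Chmp1b fell by 1.03 on 1418816_at (adjusted p = 0.00451) and by 0.93 on 1418817_at (adjusted p = 0.0245). The call on 1418817_at was lost without control liver replicate 2 or either brain control. The third lower call was Chmp4c on 1431176_at, and it is not read as a fall in brain. That probe set was at or above the array median on 8 of the 20 arrays, those of duodenum and liver, and its brain mean of 4.73 was above those of spleen (4.29) and bone marrow (4.25) and below those of duodenum (9.33) and liver (5.96). For Chmp2b the probe sets had opposite signs and neither was called, at 0.45 ± 0.31 on 1428252_at (adjusted p = 0.288) and -0.28 ± 0.29 on 1428253_at (adjusted p = 0.481). Chmp4b was at 0.41 and not called when bone marrow was left out of the other tissues. Leaving out 1 control array at a time gave between 3 and 9 calls with Chmp4c counted, with 3 without control liver replicate 2 or either brain array and 9 without control bone marrow replicate 1.

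**Figure D5:**
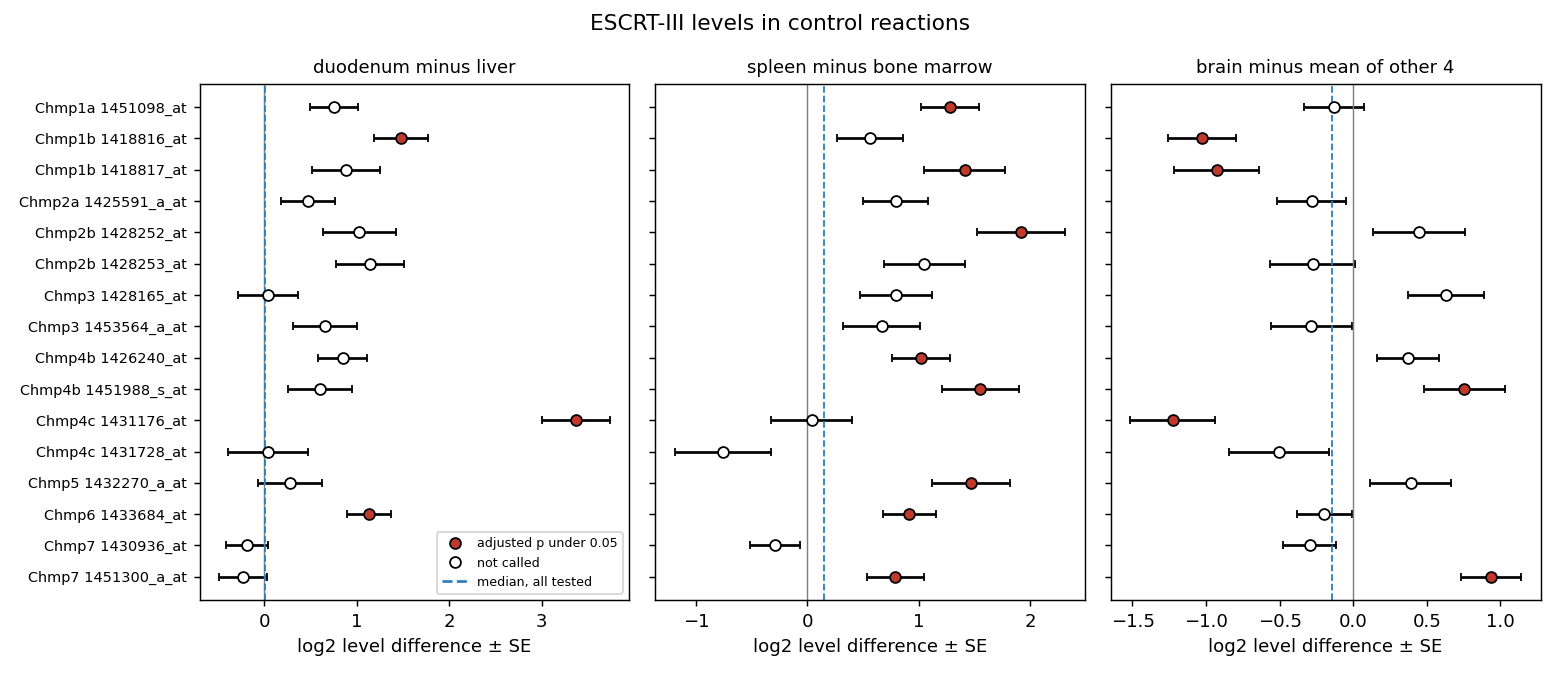
Difference in log2 level between tissues on the control arrays, with limma's SE, for the 16 tested probe sets, filled where the adjusted p is under 0.05; the dashed line is the median of all tested probe sets. Filled points number 3 in duodenum minus liver, 8 in spleen minus bone marrow and 5 in brain minus the other tissues, where the Chmp4c point is not read as a fall, and Chmp4c at 3.37 in duodenum minus liver lies farthest from 0.

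Among the paralogs, bright probe sets also had ratios near 0, and the part of signal level in the ratios was not tested. Chmp5, Chmp4b on 1451988_s_at and Chmp1b on 1418817_at had mean levels of 12.06, 12.31 and 9.76 over all arrays and ratios of -0.15, -0.06 and -0.08. Each of these lay at or above the array median on all 20 arrays. Within Chmp2b, duodenum had both the highest mean control level and the highest mean ratio on both probe sets, and bone marrow had the lowest of each. On 1428252_at, though, the pair ratios of duodenum and spleen overlapped, with means of 1.27 and 1.25. The tissues between did not keep 1 order: on 1428253_at liver was above spleen in control level, 8.27 against 7.36, and below it in ratio, 1.24 against 1.41. On 1428252_at brain was above spleen in level, 9.33 against 9.21, and below it in ratio, 0.99 against 1.25.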

How the data were processed

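The values analysed were the deposited log2 probe set summaries of 20 arrays, background-corrected, normalized and summarised by the authors, per the design text of the series. The submitters' processing notes name RMA, MAS5 and GCOS, with no role or version used here. Ratios were taken as the log2 value of the IRP2 array minus that of the same-numbered control array. Arrays give no read depth, and 2 arrays per group limit the precision.

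Probe sets were tested where at least 2 of the 20 arrays gave a value at or above that array's median, which left 30153 of 45101 after 64 Affymetrix controls were dropped. limma 3.58.1 in R 4.3.3 was fitted to 10 group means (IRP2 minus control) and, for tissue levels, to the 10 control arrays. Benjamini-Hochberg adjustment ran over all tested probe sets, and probe sets with an adjusted p under 0.05 were called. The fits were tested on simulated data. Gene symbols came from the platform annotation.

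Control reactions ran in parallel per the labels, and deviations of same-numbered arrays correlated at 0.923 in brain, 0.676 in duodenum, 0.565 in liver, 0.385 in spleen and 0.251 in bone marrow, so the numbers were treated as pairs. Values from a fit with a replicate block stand beside the calls that it changed.

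The members, the 32 partner genes and the markers were chosen with earlier results of these data known. Genes named were all members, partners that were called or had the highest or lowest ratio, Tfrc, and the 5 nearest patterns. The lowest and highest genes of each partner set were named after their values were seen.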

Additional observations from a re-analysis of the deposited data

How the results depend on the processing

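The mean log2 ratio of Chmp2b (1428253_at) stayed between 1.07 and 1.29 when single arrays were left out. In duodenum it was 1.63 with arrays centred on their medians, 1.55 after quantile normalization within the tissue and 1.53 to 1.81 without single arrays. In liver it was 1.30 after quantile normalization and 1.18 to 1.30 without single arrays, in spleen 1.16 to 1.65 and in brain 0.76 to 1.62. In bone marrow it ran from -0.13, without control replicate 2, to 0.96, without control replicate 1. There the other Chmp2b probe set (1428252_at) ran from -0.60, without control replicate 2, to 0.83, and was -0.09 without IRP2 replicate 1. The replicate block leaves the Chmp2b mean ratio at 1.18 by design, since each tissue and replicate has 1 array of each reaction. That block called 322 probe sets higher and 44 lower on the mean over tissues, against 110 and 2 without it. Beyond the calls given above with the block, it changed no other call of a member's control level or of a partner gene. Duodenum minus liver gave 6 member calls with all 20 arrays in the fit, 6 after quantile normalization, 3 with the replicate block and 1 to 8 without single arrays, against 3. Spleen minus bone marrow gave 2 after quantile normalization, 7 with the replicate block and 0 to 13 without single arrays, against 8. Brain minus the other tissues gave 4 with the replicate block and 3 to 9 without single arrays, against 5. The shares of all tested probe sets called at these settings are not given here, so the moves are not read as the members' own. The cause of these moves was not tested. The partner genes gave 0 calls on the mean over tissues in the 6 other settings and without any single array. Leaving bone marrow out of the mean was added after seeing the data. Dim probe sets limit Chmp4c most, since 3 of its 5 probe sets were not tested.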
